A study of Rattus norvegicus with 6 samples.

Results

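Transcripts of the transcriptional coactivator YAP, its DNA-binding partner TEAD1 and their classical target genes were followed in rat liver after dosing with a receptor activator that enlarges the organ. The set holds 8 genes, Yap1, Tead1, Ccn1, Ccn2, Ankrd1, Amotl2, Lats2 and Axl, and every non-control probe whose transcript accession belongs to one of them was taken, which gave 9 of the 30367 probes of the array for 7 of the 8 genes. No probe was matched to Yap1 through the accessions used here, so it was not analysed here. Of the 7 genes with a probe, 3 (Ccn1, Ccn2 and Lats2) were bright enough to be tested among 16389 genes, and 4 (Tead1, Ankrd1, Amotl2 and Axl) were not.

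The PCN group was 3 male Wistar Hannover rats given pregnenolone-16α-carbonitrile (PCN) in corn oil by gavage at 100 mg/kg per day for 7 days, and the control group was 3 such rats given corn oil alone for the same time. PCN is a man-made steroid and the standard agonist of PXR (pregnane X receptor) in rodents, a nuclear receptor through which liver senses foreign compounds. The rats were bought at 4 weeks of age and rested for 1 week, and RNA of each liver was read on its own Agilent 1-colour array. Levels below are log2 of the processed signal relative to the 75th percentile of the array, so that 0 is the level of that percentile, and changes are PCN minus control on that scale.

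In liver the Hippo kinases, the upstream MST pair (genes Stk3 and Stk4) and the downstream LATS pair, phosphorylate YAP and its relative TAZ and keep them in the cytoplasm. When that brake is released, YAP enters the nucleus, binds TEAD factors at their DNA element and switches on genes for growth and matrix, and mouse livers with active YAP overgrow. Control of YAP lies mainly in phosphorylation and location of the protein, which arrays do not measure. PXR activation is also known to enlarge rodent liver, and the comparison asks whether transcripts of the YAP and TEAD genes differ beside it. Liver weight is not among the values analysed here.

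The promoters of Ccn2 and Ccn1 are shown because both genes are the standard readouts of TEAD-bound YAP and were measured above background on all 6 arrays. Each run is the 250 bases before the gene's start on the minus strand of GRCr8, from RefSeq, with the core TEAD element (GGAATG, or CATTCC on the other strand) in capitals.
Ccn2, chr1:22624615-22624864: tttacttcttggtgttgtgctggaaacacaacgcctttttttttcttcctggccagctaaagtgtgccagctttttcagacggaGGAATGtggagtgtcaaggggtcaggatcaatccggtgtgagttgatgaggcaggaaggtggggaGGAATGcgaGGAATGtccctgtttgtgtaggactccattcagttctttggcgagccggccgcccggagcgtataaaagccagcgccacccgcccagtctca
Ccn1, chr2:237225690-237225939: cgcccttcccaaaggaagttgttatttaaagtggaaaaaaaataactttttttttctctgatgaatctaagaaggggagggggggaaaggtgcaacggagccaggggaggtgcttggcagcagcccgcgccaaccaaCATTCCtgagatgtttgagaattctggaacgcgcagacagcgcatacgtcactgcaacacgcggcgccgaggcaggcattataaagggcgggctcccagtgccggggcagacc
Ccn2 held 3 matches, beginning 166, 101 and 92 bases before the start, and Ccn1 held 1, beginning 113 bases before it. Among the 5 listed genes with a promoter in the table, 4 held the element within the window of 250 bases before and 50 after the start (Yap1, Ccn1, Ccn2 and Amotl2, but not Axl), against 14.2% of 33469 promoters of the same length. Windows with 3 or more matches, as in Ccn2, made up 0.0956% of them. The 5 genes were listed for their known tie to YAP and TEAD, so the share among them is no test of the element. A match describes these letters and was not tested as a binding site.

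The livers carried a strong transcript response to PCN, and the liver label was borne out by hepatocyte marker levels. Cyp3a23-3a1, the inducible cytochrome P450 that serves as the usual readout of rodent PXR, lay at 8.14, 8.17 and 8.43 in PCN livers and at 3.54, 4.14 and 4.14 in control livers, a rise of 4.31 ± 0.19 (SE, n = 3 per group, limma adjusted p = 1.69e-04). All 12 hepatocyte markers passed the filter on dim probes. The mean over the 12 was 5.51 to 5.97 on PCN arrays and 5.63 to 5.79 on control arrays. Single markers ran from Hnf4a, at -1.32 with PCN and -1.95 in controls, to Ttr, at 8.96 and 8.95. Of the 12, 1 rose (Hnf4a, by 0.63 ± 0.13, past the test in 14 of 18 alternatives), 8.33% called against 19.9% of all tested genes. The array's 75th percentile, over processed signals, lay at 488 to 627 on PCN arrays and 633 to 758 on control arrays, and 61.6% to 65.8% of spots on PCN arrays and 65.5% to 68.9% on control arrays lay well above background. The PCN arrays shared 1 slide and the control arrays another, with 1 scan time each, and the effects of slide and treatment therefore cannot be told apart. In whole liver, fewer cells of a type and less RNA per cell cannot be told apart either.

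None of the 3 tested genes passed the test. Over all tested genes 19.9% were called at adjusted p under 0.05 (limma, Benjamini-Hochberg over all 16389), 4.37% higher and 15.5% lower with PCN, and 8.02% were both called and changed at least 2-fold, while 0 of 3 YAP genes were called and 0 had an unadjusted p under 0.05. Groups that did not overlap were seen at 41.4% of all tested genes and at 0 of the 3 tested YAP genes. The groups also overlapped at the remaining probes of the YAP and TEAD genes, most of which were too dim to be tested. A list of 3 tested genes is too short to be set against these shares. What the data give instead is an interval for each gene, and the intervals differ widely in width.

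Ccn1 (formerly Cyr61), a secreted matricellular protein that binds integrins, was measured at levels of -1.96, -1.76 and -2.0 in PCN livers and -1.78, -1.88 and -1.67 in control livers. The PCN livers held both the lowest and the second highest level, and the groups overlapped. Its mean level was -1.91 ± 0.13 with PCN and -1.78 ± 0.11 in controls (SD, n = 3 each). The change of -0.13 ± 0.11 (SE, limma adjusted p = 0.472) had a 95% confidence interval of -0.40 to 0.14, which is 0.757 to 1.10 as a fold. A 2-fold change in either direction lay outside that interval, and the sign of the small difference turned with median scaling (0.08). With E1A spike-in scaling the change was -0.39, with an interval of -0.771 to -0.005 that left out 0 but no call (limma adjusted p = 0.112). Ccn1 was read from 1 spot per array, so the spread between spots is unknown for it.

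Ccn2 (formerly Ctgf), a secreted matricellular protein best known in liver for its part in fibrosis, was the most variable of the 3. Its levels were -5.25, -4.37 and -4.28 in PCN livers and -4.24, -4.24 and -4.90 in control livers. One liver in each group was low, PCN replicate 1 and control replicate 3, while the other 4 lay close together. The mean level was -4.63 ± 0.53 with PCN and -4.46 ± 0.38 in controls (SD, n = 3 each). The change was -0.17 ± 0.31 (SE, limma adjusted p = 0.730) with an interval of -0.90 to 0.55, or 0.535 to 1.47 as a fold. Changes inside that range were not excluded by these arrays. Without PCN replicate 1 the change was 0.13, and its sign also turned with quantile normalization (0.11), median scaling (0.03), cyclic loess (0.03) and normexp (0.12), while E1A spike-in scaling gave -0.43. The spread of Ccn2 within groups was larger than that of 92.5% of tested genes, taken at all levels, against 26.6% for Ccn1.

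The array carries 10 spots of the Ccn2 probe, so the spread between spots of 1 array can be set beside the spread between arrays. Within an array the SD over spots was 0.16 to 0.37, giving a typical standard error of 0.0823 for an array's mean, while the SD between arrays of 1 group was 0.465. With 1 array per liver, that second spread holds labelling, hybridisation and background subtraction as well as the liver, and these cannot be told apart. In PCN replicate 1, 8 of 10 spots were above background and in control replicate 3, 8 of 9 usable spots, against all usable spots elsewhere. With normexp background correction the SE of the change was 0.11, against 0.31, with an interval of -0.14 to 0.385. That setting adds an offset of 50 to every signal, which compresses log2 differences between dim signals. The 2 SEs are therefore not on a like scale, and the narrower interval is not a more precise one. The part of background in the spread was not tested. The 10 spots of PCN replicate 1 ran from -5.86 to -4.75, the 9 usable spots of PCN replicate 2 from -4.59 to -4.16 and the 10 of PCN replicate 3 from -4.76 to -3.92, so that PCN replicate 1 lay below PCN replicate 2 in full and met PCN replicate 3 at the end of its range. In controls the 9 usable spots of replicate 3 ran from -5.53 to -4.40, the 10 of replicate 1 from -4.50 to -3.91 and the 10 of replicate 2 from -4.52 to -4.00, so the highest spots of replicate 3 fell within the range of the other controls.

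**Figure D1:**
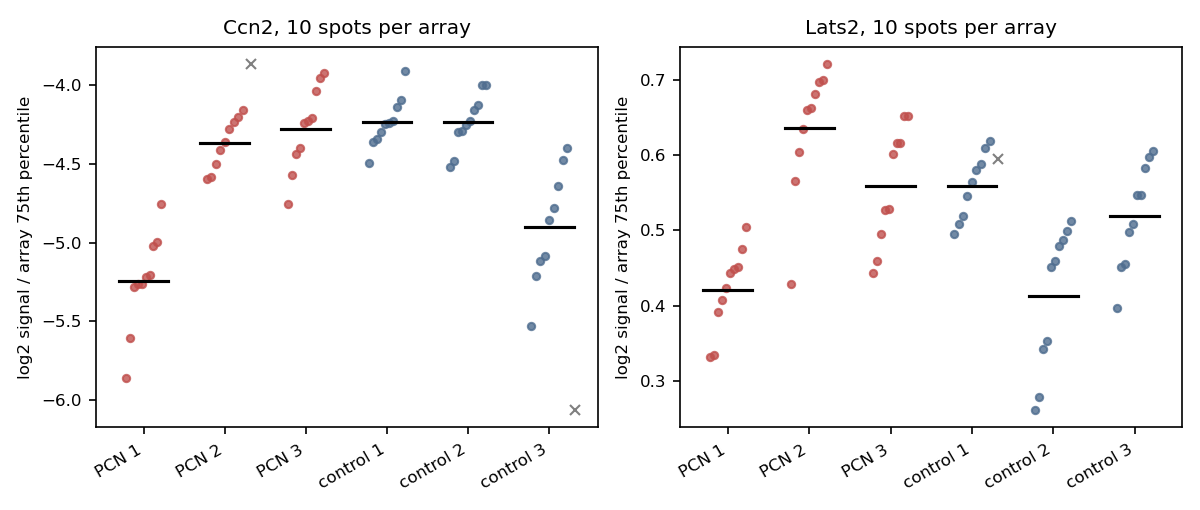
Log2 signal relative to the array's 75th percentile for each of the 10 spots of the Ccn2 probe (left) and of the 10-spot Lats2 probe (right), by array, with PCN in red and control in blue; the black line is the array's mean and grey crosses are spots marked as outliers and left out. For Ccn2 the arrays PCN 1 (mean -5.25) and control 3 (mean -4.90) sit below the other 4, while all Lats2 means lie between 0.41 and 0.64 (the vertical scales differ).

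Lats2, one of the LATS kinases that phosphorylate YAP and itself a YAP target in a negative feedback loop, had the tightest values. Its 10-spot probe gave levels of 0.42, 0.64 and 0.56 in PCN livers and 0.56, 0.41 and 0.52 in control livers. The highest was a PCN liver and the lowest a control liver, and the groups overlapped almost completely. The mean level was 0.54 ± 0.11 with PCN and 0.50 ± 0.08 in controls (SD, n = 3 each), and the change was 0.04 ± 0.10 (SE, limma adjusted p = 0.817) with an interval of -0.21 to 0.29, or 0.866 to 1.22 as a fold. Only 15.3% of tested genes varied less within groups. The sign of this small value turned with E1A spike-in scaling (-0.22), and median scaling gave 0.25.

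A second Lats2 probe, for the same transcript and with 2 spots per array, read far below the 10-spot probe. It read -4.52, -4.40 and -4.03 in PCN livers and -4.47, -4.18 and -4.44 in control livers, a change of 0.05 ± 0.16 (SE, limma adjusted p over tested probes = 0.868) with an interval of -0.34 to 0.43. Both probes of Lats2 had overlapping groups, and both intervals held 0. The reason for their unlike levels was not tested, nor was whether the brighter probe reports Lats2 alone. The change at this second probe moved more with scaling, to 0.35 with quantile normalization, 0.28 with cyclic loess, 0.25 with median scaling and -0.21 with E1A spike-in scaling.

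**Figure D2:**
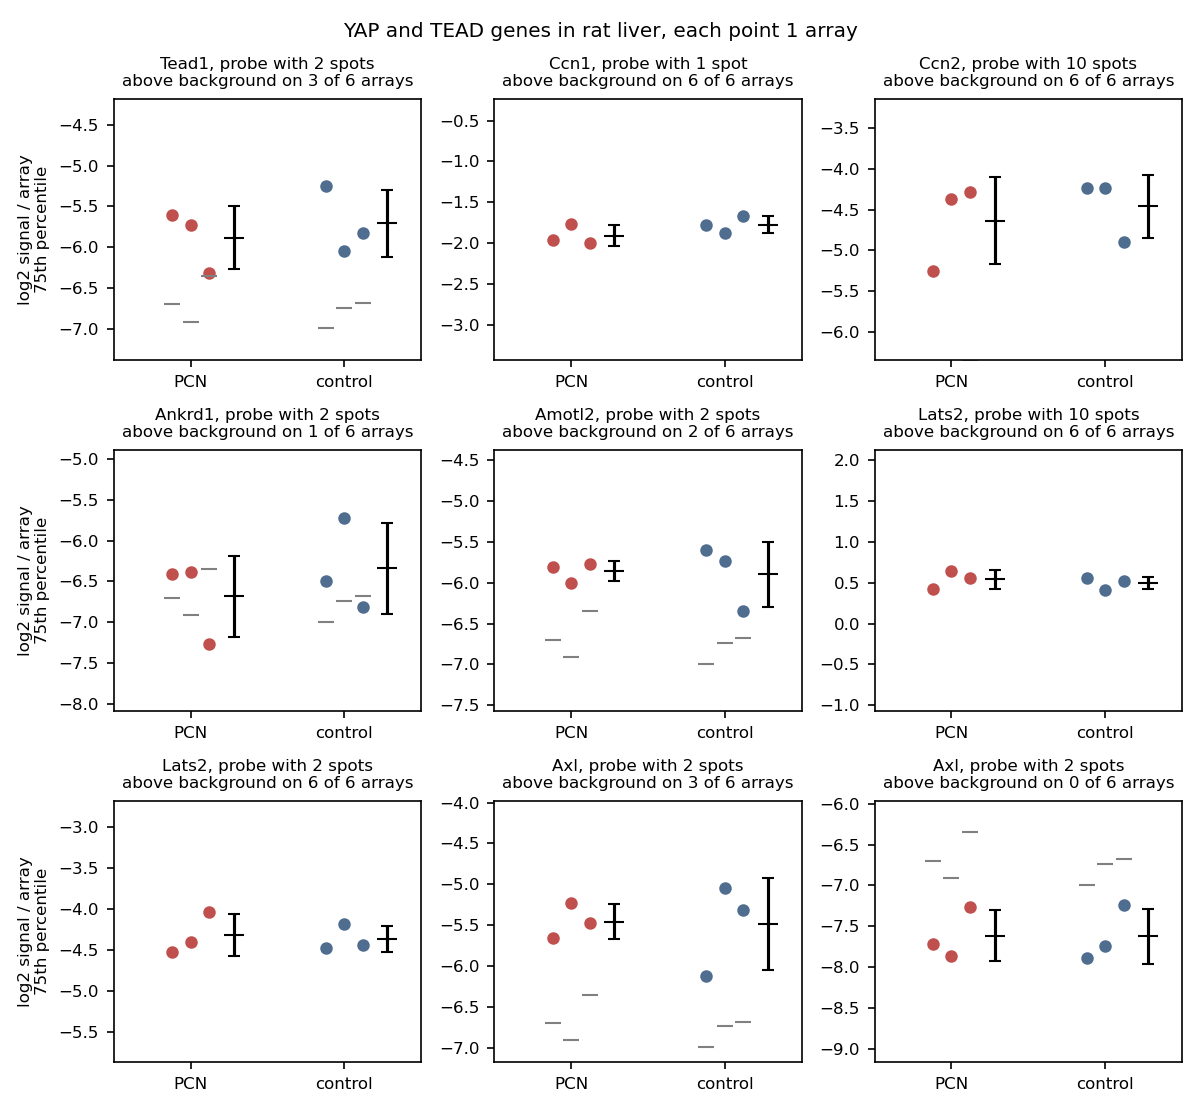
Log2 signal relative to the array's 75th percentile for the 9 probes of the YAP and TEAD genes, 1 panel per probe, with each point 1 array, PCN left of control; the black bar is the mean with its SD (n = 3), and the grey ticks in dim panels mark, for each array, the lowest level of any probe well above background. The PCN and control points overlap in all 9 panels, and each panel spans the same height on the log2 scale around its own level.

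The other 4 genes were too dim for a test, because each of their probes lacked the scanner's mark for well above background on at least 1 array of each group. The lowest level of any probe well above background was -6.91 to -6.35 on PCN arrays and -6.99 to -6.68 on control arrays. Tead1, a TEAD factor that carries YAP to DNA, was above background on 2 of 3 PCN arrays and 1 of 3 control arrays, with levels of -5.60, -5.73 and -6.32 in PCN livers and -5.25, -6.05 and -5.82 in control livers. Its highest level and its second lowest were both in control livers. Of the 12 spots of its probe 3 were above background.

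Amotl2, an angiomotin family protein that holds YAP at cell junctions and is also a YAP target, read -5.81, -6.00 and -5.77 in PCN livers and -5.60, -5.74 and -6.35 in control livers. The control livers spanned the PCN livers, and 1 array of each group was above background. Ankrd1, a nuclear ankyrin repeat protein abundant in heart and a sensitive YAP target, was above background on 0 of 3 PCN arrays and 1 of 3 control arrays. Its levels were -6.41, -6.38 and -7.26 in PCN livers and -6.49, -5.72 and -6.81 in control livers, around the lowest level detected. Only 1 of its 12 spots, in control replicate 2, was above background.

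Axl, a receptor tyrosine kinase for GAS6 and a YAP target, had 2 probes for different transcripts. The probe for NM_001013147 was above background on 1 of 3 PCN arrays and 2 of 3 control arrays, at -5.66, -5.23 and -5.48 in PCN livers and -6.12, -5.04 and -5.31 in control livers. The control livers held both the lowest and the highest level. The probe for NM_031794 stayed below the scanner's mark for well above background on all 6 arrays, with levels of -7.86 to -7.26 in PCN livers and -7.89 to -7.24 in control livers. At this signal a change in these 4 genes was not tested, which is not a statement that it was absent. A rise that brought a probe above background on all 3 PCN arrays would have been tested. When the filter on dim probes was dropped, all 7 genes entered a fit of 26902 genes and none was called (limma adjusted p = 0.664 to 0.960). The intervals there were -1.22 to 0.53 for Ankrd1, -0.85 to 0.50 for Tead1, -0.50 to 0.57 for Amotl2 and -0.68 to 0.75 for Axl.

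The Hippo pathway list holds the regulators of YAP and also its relative TAZ, TEAD factors and a TEAD competitor, and 1 of its genes passed the test. Of 41 listed Hippo pathway genes 31 had a probe and all 31 were tested; 1 rose, 0 fell and 30 did not pass, 3.23% called against 19.9% of all tested genes. The median change was 0.01, beside -0.06 over all tested genes, and the values ran from -0.32 to 0.54. In 8 of the 31 the groups did not overlap, against 41.4% of all tested genes. The mean level over the list was -1.30 to -1.26 on PCN arrays and -1.37 to -1.32 on control arrays. The count moved with scaling, with 4 higher under quantile normalization, 6 higher under median scaling, and 0 higher and 2 lower under E1A spike-in scaling. The median change of all tested genes itself was 0.14 under median scaling and -0.32 under spike-in scaling.

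The gene that rose was Stk4, which encodes the MST1 kinase at the top of the cascade. Its levels were 1.55, 1.44 and 1.51 in PCN livers and 1.12, 0.79 and 0.96 in control livers. All PCN livers lay above all control livers, and the change was 0.54 ± 0.12 (SE, n = 3 per group, limma adjusted p = 0.0205). This call rests on the brighter probe, since the other Stk4 probe gave -0.16 ± 0.14 (limma adjusted p over tested probes = 0.492) and the mean of both probes 0.19. It was also lost with E1A spike-in scaling (0.29), without the filter on dim probes, and without any 1 of PCN replicates 1 and 3 or control replicates 2 and 3 (limma adjusted p = 0.0555 to 0.0648).

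The other parts of the core cascade, named here for their role with their values known, did not pass. Stk3, the MST2 kinase, gave 0.35 ± 0.15 and 0.36 ± 0.14 at its 2 probes (SE), the first with limma adjusted p = 0.151. The scaffold Sav1 gave -0.21 ± 0.11, and the LATS cofactors Mob1a and Mob1b gave -0.03 ± 0.09 and 0.01 ± 0.10. Nf2, the membrane-associated tumour suppressor that activates LATS kinases, gave -0.12 ± 0.11. The groups did not overlap for Stk3 (higher in PCN livers) and Sav1 (lower in PCN livers). Each of these 5 changes was smaller than 0.5 in size, and the intervals of Mob1a (-0.25 to 0.20) and Mob1b (-0.22 to 0.23) were among the narrow ones.

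The genes of this paragraph were also named with their values known. At the level of YAP's partners, Wwtr1, which encodes TAZ, read -3.39, -3.47 and -3.23 in PCN livers and -3.69, -3.66 and -4.16 in control livers. Every PCN liver was above every control liver, but the change of 0.47 ± 0.16 (SE) did not pass (limma adjusted p = 0.0876). It did pass with quantile normalization (0.71), median scaling (0.68) and cyclic loess (0.67), with limma adjusted p of 0.0221 to 0.0255, and over all alternatives it ranged from 0.22 to 0.71. The TEAD family members Tead2 and Tead3 gave 0.21 ± 0.17 and 0.10 ± 0.12, and Vgll4, a competitor of YAP for TEAD binding, gave 0.35 ± 0.30, none past the test. Elsewhere in the Hippo list, Map4k4 (0.53 ± 0.17, limma adjusted p = 0.0748) and Ajuba (0.37 ± 0.12, limma adjusted p = 0.0786) came nearer the threshold than Wwtr1. Their groups did not overlap either, with PCN livers higher. Map4k4 passed in 2 of 18 alternatives, and its other probe gave 0.02 ± 0.19.

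**Figure D3:**
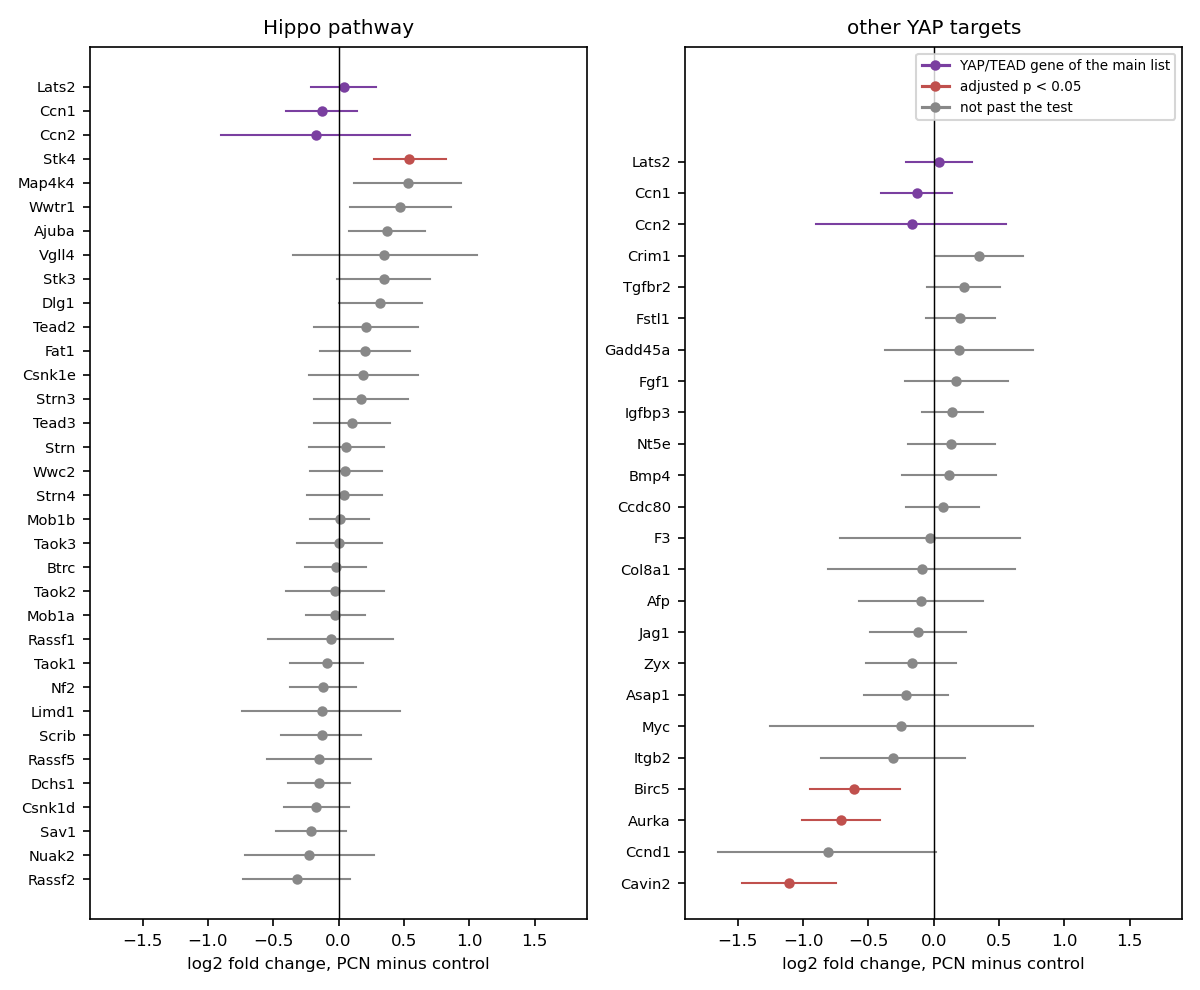
Log2 fold change, PCN minus control, with its 95% confidence interval (limma, n = 3 per group) for tested genes of the Hippo pathway (left, 31 genes) and for other YAP targets (right, 21 genes); purple marks Lats2, Ccn1 and Ccn2, red the genes with adjusted p under 0.05 and grey those not past the test. Stk4 is the red point on the left, at 0.54, and Birc5, Aurka and Cavin2 are the red points on the right, at -0.61, -0.71 and -1.11.

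Beyond the main genes, a wider list holds targets reported for YAP and TEAD in other cells. Of 35 listed genes 29 had a probe and 21 were tested; 0 rose, 3 fell and 18 did not pass, 14.3% called against 19.9% of all tested genes, and in 6 the groups did not overlap, against 41.4%. The mean level over the list was -0.80 to -0.65 on PCN arrays and -0.63 to -0.57 on control arrays. The median change was -0.09, beside -0.06 over all tested genes, and turned to 0.07 with normexp, cyclic loess and quantile normalization and to 0.11 with median scaling, where 4 rose and 2 fell. Targets with a probe that were too dim to test included Areg, Edn1 and Thbs1.

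Cavin2, a caveolar coat protein of endothelium, read 3.93, 3.87 and 3.99 in PCN livers and 5.34, 4.93 and 4.83 in control livers. It fell by 1.11 on the log2 scale (SE 0.15, n = 3 per group, limma adjusted p = 4.77e-03), and stayed past the threshold under all 18 alternatives. Aurka, the mitotic kinase Aurora A, read -2.57, -2.81 and -2.62 in PCN livers and -2.02, -2.08 and -1.78 in control livers. All PCN livers were below all control livers, the change was -0.71 ± 0.13 (SE, limma adjusted p = 0.0111), and it too stayed past the threshold under all 18 alternatives. Birc5, which encodes survivin, a mitotic and survival protein, read -2.80, -2.83 and -3.23 in PCN livers and -2.38, -2.42 and -2.23 in control livers. Its change was -0.61 ± 0.14 (SE, limma adjusted p = 0.0293), and it passed under 8 of 18 alternatives. Aurka and Birc5 are cell cycle genes of dividing cells of many types as well as reported YAP targets.

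Several targets often used beside Ccn1 and Ccn2, named here after their values were known, did not pass. Ccnd1, cyclin D1, read -1.48, -0.25 and -0.21 in PCN livers and 0.31, 0.33 and -0.13 in control livers. The PCN livers were all below the control livers, yet PCN replicate 1 lay far below the others, and the change of -0.81 ± 0.35 (SE) had limma adjusted p = 0.154 and an interval of -1.65 to 0.02. Myc gave -0.25 ± 0.42, Igfbp3 0.14 ± 0.10, Crim1 0.35 ± 0.14 and Afp, the fetal liver marker that rises when YAP is active in mouse liver, -0.10 ± 0.20. The interval of Igfbp3 was -0.09 to 0.38 and that of Crim1 0.01 to 0.68. For Crim1 and Igfbp3 too the groups did not overlap, with the PCN livers above the control livers (Crim1 at 0.98, 1.38 and 1.24 in PCN livers and 0.71, 0.88 and 0.97 in control livers).

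Actin and serum response factor genes, which share targets with YAP, were read beside them. Of 15 listed genes 11 had a probe and 10 were tested; 0 rose, 1 fell and 9 did not pass, 10% called against 19.9% of all tested genes, with a median change of 0.05. The one that fell was Acta2, smooth muscle actin, at -2.64, -2.95 and -2.77 in PCN livers and -1.97, -2.34 and -1.82 in control livers, a change of -0.74 ± 0.16 (SE, limma adjusted p = 0.0225). The call for Acta2 was lost in 7 of 18 alternatives, among them normexp and median scaling, at limma adjusted p of up to 0.0755.

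Most markers of the other cells of liver did not pass, and their part in the levels above was not tested. Beside the 19.9% of all tested genes that were called (4.37% higher and 15.5% lower), the shares called were 16.7% of stellate cell, 12.5% of endothelial, 33.3% of T cell, and 0% of Kupffer cell and of cholangiocyte markers. Of 12 tested stellate cell markers, 1 rose (Rgs5, by 0.96 ± 0.17) and 1 fell (Lrat, at -1.33 ± 0.22), and their mean level was -1.32 to -1.07 on PCN arrays and -1.11 to -0.98 on control arrays. Of 8 tested endothelial markers 0 rose and 1 fell (Cdh5, at -0.49 ± 0.14, past the test in 6 of 18 alternatives), with mean levels of -0.46 to -0.28 on PCN arrays and -0.30 to -0.17 on control arrays. Of 11 tested Kupffer cell markers none was called, and their mean level was 0.43 to 1.10 on PCN arrays and 1.14 to 1.25 on control arrays. Of 6 tested cholangiocyte markers none was called, and of 6 tested T cell markers 0 rose and 2 fell, Cd3d at -0.66 ± 0.12 and Lck at -0.67 ± 0.14, which turned to 0.06 with normexp. The 11 changes of the Kupffer cell markers ran from -0.52 to -0.22. T cell markers had mean levels of -4.37 to -3.86 on PCN arrays and -3.82 to -3.47 on control arrays, and cholangiocyte markers -3.95 to -3.87 on PCN arrays and -3.97 to -3.96 on control arrays. The array means of the groups thus did not overlap for Kupffer cells and T cells, lower with PCN. Nor did they for cholangiocytes, higher with PCN, where the nearest means were -3.95 with PCN and -3.96 in controls. This was not particular to these cells. It also held for the Hippo pathway list (higher with PCN) and the lists of other YAP targets, mesothelial cells and striated muscle (lower with PCN). Of all tested genes taken singly, 41.4% had groups that did not overlap.

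The 2 remaining marker lists were those of mesothelial cells and striated muscle. Of 2 tested mesothelial markers none was called, with changes of -0.82 and -0.73 and mean levels of -3.96 to -3.67 on PCN arrays and -3.03 to -3.0 on control arrays. Of 6 tested striated muscle markers 0 rose and 2 fell, Ckm at -2.44 ± 0.37 and Tnnt2 at -0.53 ± 0.13 (past the test in 7 of 18 alternatives), while Myh6, Myh7 and Myl2 were above background on 0 arrays. That is 33.3% called against 19.9% of all tested genes, and the mean level was -2.84 to -2.57 on PCN arrays and -2.19 to -1.83 on control arrays. Ankrd1, which is abundant in striated muscle, was at the detection limit in both groups.

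**Figure D4:**
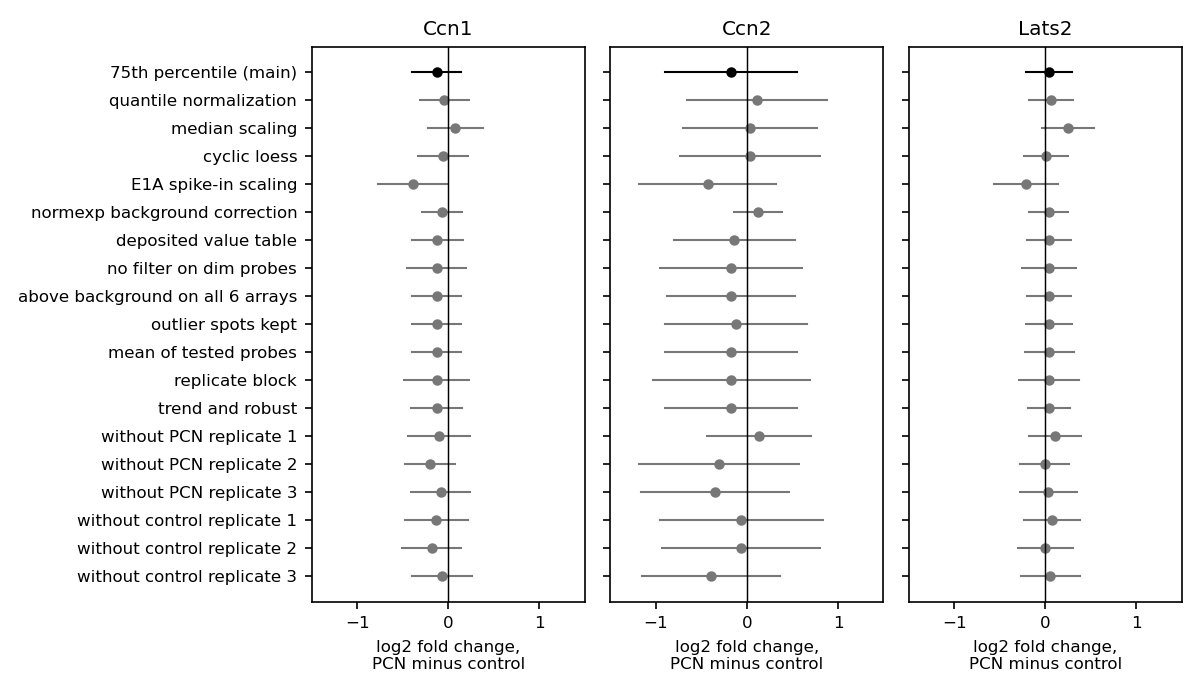
Log2 fold change, PCN minus control, with its 95% confidence interval (limma) for Ccn1, Ccn2 and Lats2 under the main scaling (black, top) and each of 18 alternatives (grey). The points lie between -0.39 and 0.08 for Ccn1, between -0.43 and 0.13 for Ccn2 and between -0.22 and 0.25 for Lats2, signs differ between settings for each gene, and none of the 3 genes was called under any setting.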

How the data were processed

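Liver RNA (100 ng) of 6 rats was labelled with Cy3 and hybridised to 1 array each, per the labels. The deposited intensity values are processed signals from Agilent Feature Extraction 10.7.3.1, background-subtracted within the array per the file headers. A table of values was also deposited by the authors; 98.9% of its values lay within 0.006 of the ratio of processed signal to the array's 75th percentile, with column medians of 0.10 to 0.11 (PCN) and 0.12 (control), so its scale is linear and uncentred. The sources used here do not say how the authors tested for change.

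From the intensities, R 4.3.3 (data.table version 1.17.8) was used to take log2 signal minus the log2 75th percentile of the 58717 non-control spots. Controls and outlier-marked spots were dropped, and spots of 1 probe were averaged. A probe was above background where at least 50% of its spots were, and was tested if so on all 3 arrays of at least 1 group (18329 probes). Probes were named by transcript accession through RefSeq's table for GRCr8 (18004 of 30367 with 1 symbol). The files name the build rn4, so GRCr8 coordinates are given for the promoters only. The brightest tested probe stood for a gene. Groups were compared with limma 3.58.1 (lmFit, eBayes, no covariate, two-sided), adjusted by Benjamini-Hochberg over 16389 genes, a gene without a symbol keeping its accession. The procedure was tested on simulated data.

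Genes named are all probes of the listed genes, list members past the test, Cyp3a23-3a1, examples too dim to test, and others said to be named with their values known. The members and lists were chosen with earlier results of these data known. The normexp alternative used median in place of mean signals, which the files do not hold. It added an offset of 50 to every signal, which compresses changes at dim probes. The deposited ratio was floored at 0.01. With 3 arrays per group, precision is limited by their number.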

Additional observations from a re-analysis of the deposited data

How the results depend on the processing

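The 3 tested YAP genes were called under 0 of 18 alternatives. Signs of their small changes turned under some scalings. Ccn1 gave 0.08 with median scaling. Ccn2 gave 0.12 with normexp, 0.03 both with cyclic loess and with median scaling, and 0.11 with quantile normalization. Lats2 gave -0.22 with E1A spike-in scaling. With 1 array left out in turn, Ccn1 ran from -0.20 to -0.07, Ccn2 from -0.40 to 0.13 and Lats2 from -0.01 to 0.10. The count of Hippo pathway genes called was 6 with median scaling, 4 with quantile normalization, 2 with cyclic loess, 2 with E1A spike-in scaling, and 0 both without the filter on dim probes and with the mean of a gene's probes. It was 0 to 1 with 1 array left out. The count of other YAP targets was 6 with median scaling, and 2 to 3 with 1 array left out. Of all tested genes 3263 were called, against 4934 with E1A spike-in scaling, 1967 of 26902 without the filter, and 2024 to 2586 with 1 array left out. The share of calls that were lower was 78.1%, against 96.7% with spike-ins, 64.4% with normexp, 65.9% with quantile normalization and 41.0% with median scaling. Lck turned to 0.06 with normexp. The replicate block gave 2067 calls, with 0 of the 3 YAP genes, 1 Hippo gene and 2 other YAP targets. The labels do not say whether rats of the same replicate number were paired. Their deviations from the group means correlated at -0.10, -0.03 and -0.05, which shows no sign of pairing but cannot exclude it. Birc5, Hnf4a, Lck, Tnnt2 and Cdh5 were not called under the block (limma adjusted p = 0.0835, 0.0641, 0.0722, 0.076 and 0.127 in that order). Signal over background limits Tead1, Ankrd1, Amotl2 and Axl, which were tested only without the filter on dim probes. The causes of these differences between settings were not tested.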

Other observations

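Among the 24 tested genes of the main and wider target lists, PCN replicate 1 held the lowest level of the 6 livers for 3, and the other 5 livers for 2 to 5 each. The 3 were Ccn2, Ccnd1 and Myc, named after their values were seen. Their levels there were -5.25, -1.48 and -1.75. In the other PCN livers Ccn2 read -4.37 and -4.28, Ccnd1 -0.25 and -0.21, and Myc -0.10 and -1.08. In control livers Ccn2 read -4.24, -4.24 and -4.90, Ccnd1 0.31, 0.33 and -0.13, and Myc -0.68, -0.35 and -1.16. The lowest level of Ccn1, -2.0, was in PCN replicate 3. Without PCN replicate 1 the change of Ccnd1 was -0.40.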
